A study of Mus musculus with 55 samples.

Results

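The genes described here are 10 tubulin isotypes of neurons, chosen by name from the 22800 gene symbols that were counted. They comprise 4 alpha isotypes (Tuba1a, Tuba1b, Tuba1c and Tuba4a) and 6 beta isotypes (Tubb2a, Tubb2b, Tubb3, Tubb4a, Tubb4b and Tubb5). No measured value served as a criterion, but earlier results of these data were known when the choice was made. Each library came from 1 pyramidal neuron of the mouse prefrontal cortex, whose cytosol was taken up through a patch pipette, and the study set neurons labelled by their dopamine receptor type, D1 or D2, side by side in mice with and without Fmr1. The wild-type groups, whose labels give no knockout, held 15 D1 cells of 28 to 34 days of age and 26 D2 cells of 29 to 35 days. The knockout groups, from Fmr1-/y mice, a model of fragile X syndrome, held 6 D1 cells of 31 to 32 days and 7 D2 cells of 32 days. No agent is named in the labels, and Fmr1 is absent from every cell type of such mice.

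Tubulin is the subunit of microtubules, a dimer of 1 alpha and 1 beta chain, and each chain is made from several genes called isotypes. Isotypes differ mostly in their carboxy-terminal tail, which faces outward from the microtubule, carries modifications such as polyglutamylation and detyrosination, and meets motors and associated proteins. Neurons hold large amounts of tubulin in axons and dendrites, cells lower tubulin mRNA when free tubulin dimers build up, and Tubb3 is widely used as a marker of neurons.

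The ends of the coding sequences of the 6 beta isotypes are shown because they encode the tail in which isotypes differ most. Each run below is the last 60 coding bases including the stop codon, from the GENCODE annotation of GRCm38, 5′ to 3′ on the coding strand. Capitals mark bases without an identical partner in a pairwise alignment with Tubb2a; bases lost relative to it are not marked.
Tubb2a: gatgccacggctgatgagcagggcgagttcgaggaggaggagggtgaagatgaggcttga
Tubb2b: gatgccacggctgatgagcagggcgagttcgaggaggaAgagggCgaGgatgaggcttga
Tubb3: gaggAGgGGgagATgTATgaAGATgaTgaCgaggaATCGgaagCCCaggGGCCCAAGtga
Tubb4a: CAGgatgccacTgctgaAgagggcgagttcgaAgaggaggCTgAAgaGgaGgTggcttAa
Tubb4b: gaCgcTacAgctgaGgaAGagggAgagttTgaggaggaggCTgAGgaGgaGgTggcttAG
Tubb5: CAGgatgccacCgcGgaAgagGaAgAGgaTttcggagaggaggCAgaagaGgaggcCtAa

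Tubb2a and Tubb2b are neighbours on the minus strand of chromosome 13, at chr13:34074468-34074527 and chr13:34127471-34127530. The other tails are at chr8:123421623-123421682 (Tubb3, plus), chr17:57080690-57080749 (Tubb4a, minus), chr2:25222308-25222367 (Tubb4b, minus) and chr17:35834982-35835041 (Tubb5, minus). Tubb2b carried 3 capitals against Tubb2a, whereas Tubb3 carried 30, the highest number of these isotypes. The 3 Tuba1 genes lie together on chromosome 15. Over the whole coding sequence, Tuba1a shared 98.3% of aligned bases with Tuba1b and 97.1% with Tuba1c, and Tubb2a shared 96.5% with Tubb2b. The 3 Tuba1 genes and the Tubb2 pair are thus near copies, whereas the other pairs of beta isotypes shared 81.4% to 84.6%.

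How far reads could be assigned to 1 gene therefore differed between members. All 50-base stretches were taken from 1 transcript per gene, the one with the longest coding sequence. The share that also occurred in another annotated gene was 75.5% in Tuba1a, 83.1% in Tuba1b and 60.99% in Tuba1c. It was 49.6% in Tubb2a and 39.3% in Tubb2b. For Tubb3 the share was 0%, and it was 0.184% for Tubb4a and 0.115% for Tubb5. In Tubb4b, 55.5% of the stretches were shared, most of them with the pseudogene Tubb4b-ps1. In Tuba4a 48.8% were shared, nearly all with Stk16, a kinase gene on the opposite strand that overlaps 1379 exonic bases of Tuba4a. Levels of the Tuba1 genes, the Tubb2 pair and Tubb4b are for this reason uncertain, because the sources used here do not say how reads with several matches were counted. In addition, 473 exonic bases of Tuba1a and 426 of Tuba1b overlap exons of other annotated genes on the same strand. Reads of Tuba4a and Stk16 cannot be told apart where the genes overlap unless strand was used, and over the 54 cells their CPM (counts scaled to a common total per cell) had a Spearman correlation of 0.550.

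Between 260943 and 10673072 counts were obtained from a cell. Reads fell in at least 4000 genes in 9 of 15 D1 and 13 of 26 D2 cells of wild-type mice, and in 6 of 6 D1 and 6 of 7 D2 cells of knockout mice. These 34 cells are called gene-rich below, and since genotype and gene number moved together, values in gene-rich cells stand beside the main ones. Fmr1, the deleted gene, was read in 8 of the 15 wild-type D1 and 13 of the 26 wild-type D2 cells and in none of the 6 and 7 knockout cells. Drd1, the D1 receptor gene, was read in 4 of 15 cells labelled D1 and 2 of 26 labelled D2 in wild-type mice, and in 0 of 6 and 3 of 7 in knockout mice. Drd2 had no read in any of the 54, so that the receptor labels could not be checked from RNA in most cells. At least 1 of 10 pyramidal markers was read in each of the 54 cells, but not every marker was. Slc17a7 was read in 13 of 15 wild-type D1 cells and in every cell of the other groups, and Emx1 in 0 of 7 knockout D2 cells. The median of the summed markers was 3014 CPM for D1 and 2637 CPM for D2 cells of wild-type mice. For knockout mice it was 2155 and 2944 CPM. The labels do not say which cells came from the same animal. Each group therefore counts as 1 sample, the SDs below are spreads between cells, and no p-value was computed.

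Tubulin mRNA was read in every cell, but few cells held all members. For wild-type mice, the summed level of the 10 isotypes had a median of 3180 CPM over D1 cells (mean 4737 ± 3578, SD, n = 15) and 3059 over D2 cells (3586 ± 2235, n = 26). For knockout mice, the medians were 2331 over D1 cells (2785 ± 1792, n = 6) and 4108 over D2 cells (3861 ± 2343, n = 7). Over all cells it ran from 745 to 13123 CPM, and no pair of group means was farther apart than the larger of their SDs. Cells with a read of all 10 isotypes numbered 6 of 15 and 6 of 26 in the wild-type groups and 0 of 6 and 5 of 7 in the knockout groups. Among gene-rich cells 17 of 34 held all 10, and among the other 20 cells none did, where the median was 8 isotypes. A missing isotype was thus more frequent in cells with fewer genes read, and no level of 0 in a single cell is read here as absence of the mRNA.

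**Figure D1:**
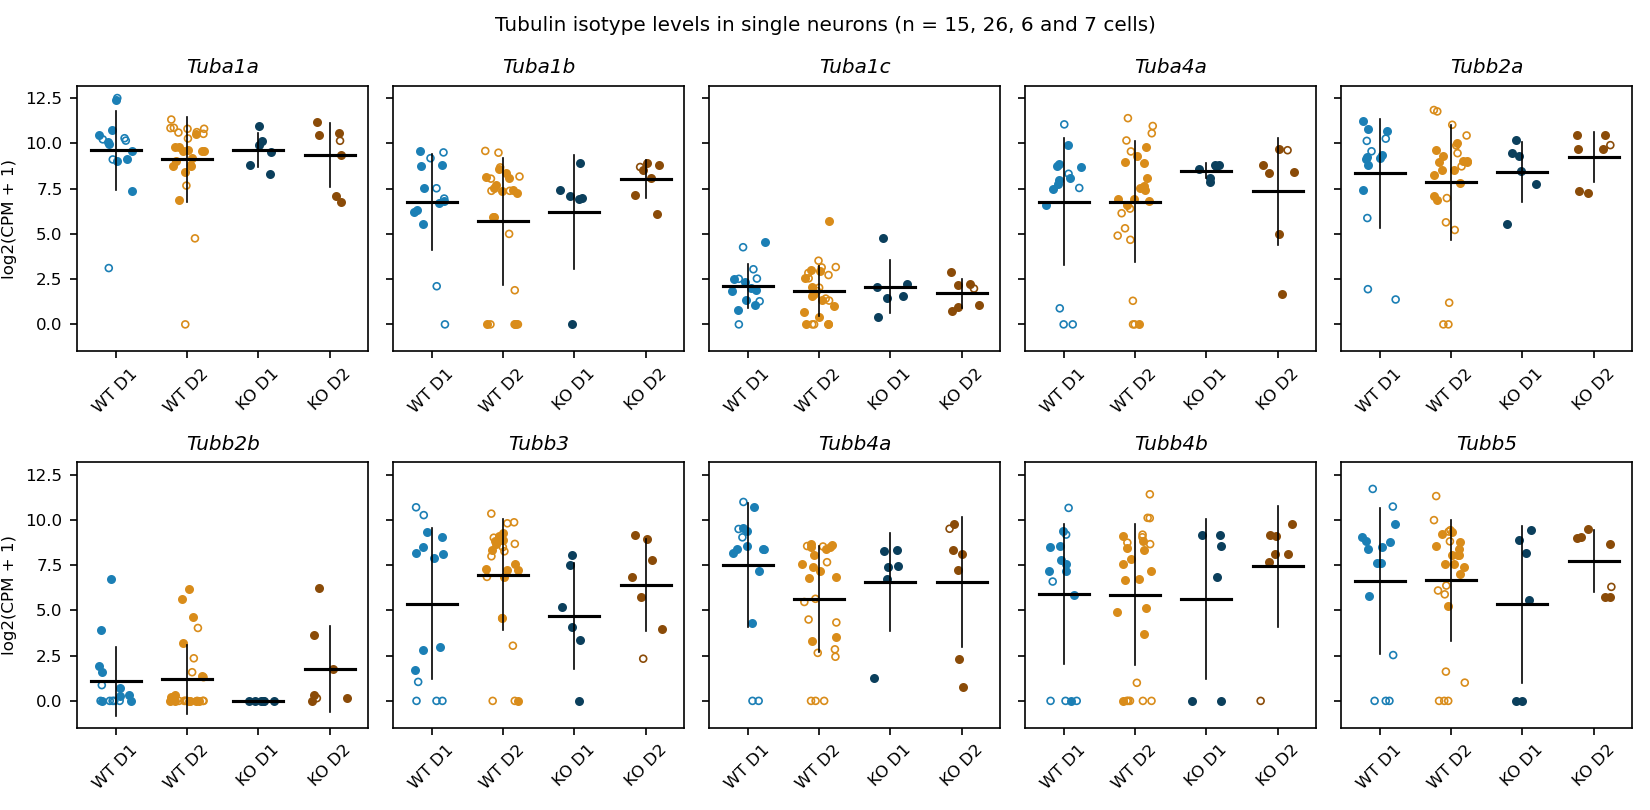
Level of each isotype in every cell, as log2(CPM + 1) on the vertical axis, by group on the horizontal axis (WT, wild type; KO, knockout). Filled points are gene-rich cells, open points the others, horizontal bars the mean and vertical lines 1 SD between cells; Tuba1c and Tubb2b stay low in all groups, and Tubb2b is at 0 in the 6 knockout D1 cells.

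Among alpha isotypes, Tuba1a, the main alpha tubulin of developing and mature neurons, was the highest per length. Divided by merged exon length, its mean over the 54 cells was 622 ± 602 CPM per kb (SD). Tuba1b, a broadly expressed alpha isotype, followed at 120 ± 114 CPM per kb, and Tuba4a, which is known to be encoded without the terminal tyrosine of other alpha chains, at 115 ± 151. Tuba1c was at 2.17 ± 3.60 CPM per kb. None of these neighbouring means was farther apart than the larger SD, and with the length of the longest transcript in place of merged exons, Tuba4a came before Tuba1b.

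Within single cells the order was more uniform than these SDs show. Tuba1a was the highest alpha isotype per kb in 48 of 54 cells, Tuba1b in 5 and Tuba4a in 1. Tuba1a made up 68 ± 19.9% of the summed alpha level per kb (SD, n = 54), with group means of 72.1% for D1 and 66.4% for D2 cells of wild-type mice and of 70.3% and 62.9% for those of knockout mice. Its share was lowest, at 0%, in the 1 wild-type D2 cell without a Tuba1a read.

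Beta isotypes were more mixed. Tubb2a, a main beta isotype of the adult brain, had the highest mean, 459 ± 493 CPM per kb over the 54 cells, and was the top beta isotype in 33 of them. Tubb4b, a widely expressed isotype also used in cilia, was at 162 ± 226, Tubb3, the neuron-typical beta isotype, at 159 ± 194, Tubb4a, found in neurons and oligodendrocytes, at 130 ± 172, and Tubb5, the broadly expressed class I beta tubulin, at 122 ± 182 CPM per kb. Tubb2b, known for high levels in the developing brain, was at 3.19 ± 9.07 CPM per kb. Tubb3 was the top beta isotype in 8 cells, Tubb4b in 7, Tubb4a in 5 and Tubb5 in 1.

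No neighbouring pair in this beta order was separated by more than the larger SD over the 54 cells. The middle of the order changed between groups. Tubb4a stood at the second place in wild-type D1 cells (245 ± 264 CPM per kb, n = 15) and at the fifth in wild-type D2 cells (68.2 ± 68.8, n = 26). Tubb3 stood at the second place in wild-type D2 cells (180 ± 176) and at the fifth in knockout D1 cells (45.1 ± 59.5, n = 6), while Tubb2a kept the first place in all 4 groups.

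**Figure D2:**
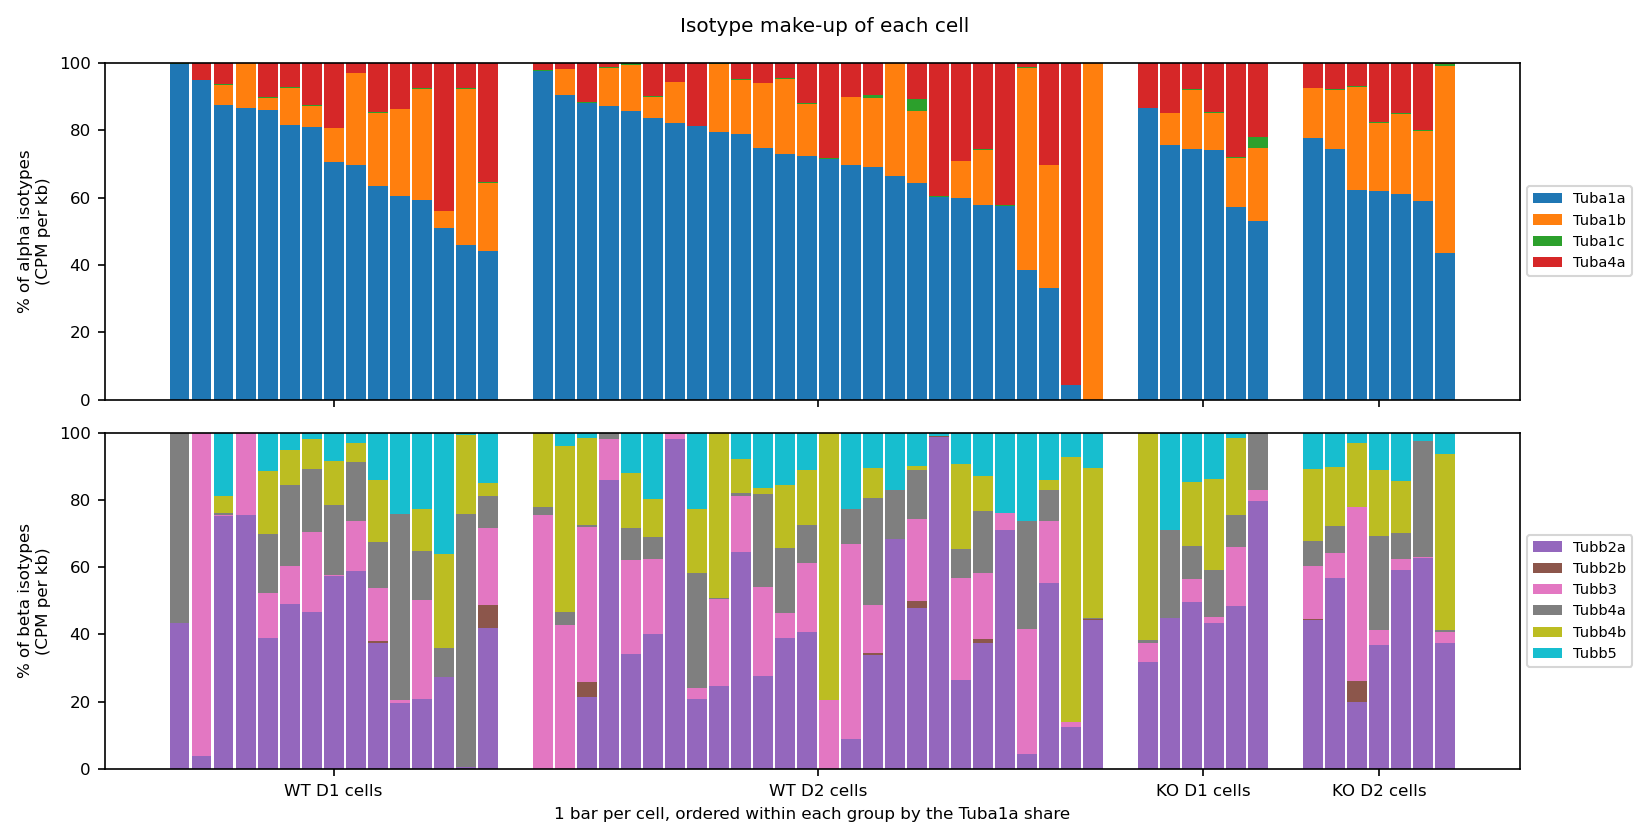
Share of each isotype in the summed alpha (upper) or beta (lower) level per kb, in percent, with 1 bar per cell ordered within each group by the Tuba1a share. Tuba1a fills most of the alpha bar in most cells, with a mean of 68%, whereas the beta bars are divided among several isotypes and Tubb2a averages 41.1%.

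Alpha and beta chains are used in equal numbers, and their summed mRNA levels per kb moved together across cells. The log2 ratio of summed alpha to summed beta had a mean of -0.27 ± 1.90 over 54 cells, and of -0.35 ± 0.88 over the 34 gene-rich cells (SD). Alpha was the higher sum in 6 of 15 D1 and 11 of 26 D2 cells of wild-type mice, and in 4 of 6 D1 and 1 of 7 D2 cells of knockout mice. The Spearman correlation of both sums was 0.573 over 54 cells and 0.736 over the gene-rich ones. All points share the cell's total as denominator, and no test was made.

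**Figure D3:**
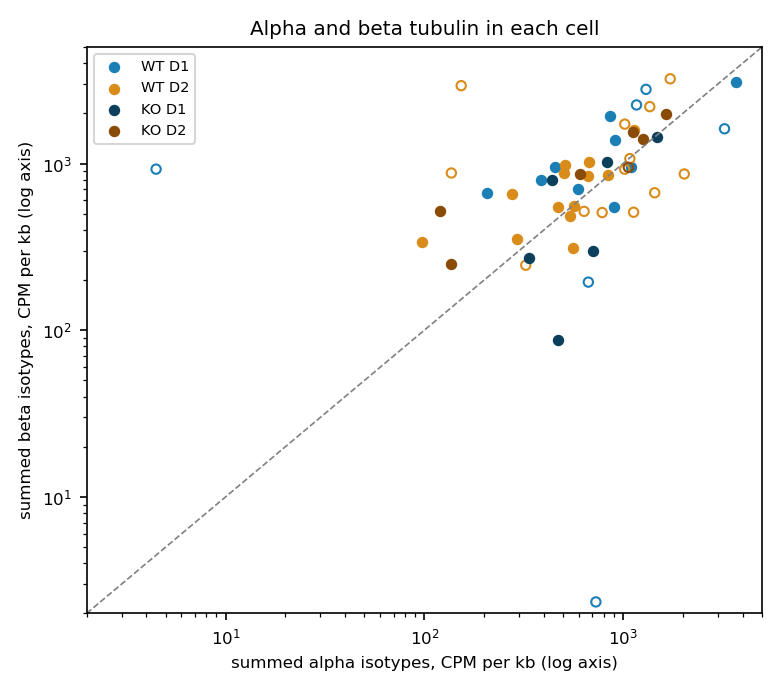
Summed beta level against summed alpha level of each cell, both in CPM per kb on log axes, with the line of equal levels dashed. Filled points are gene-rich cells and open points the others; the gene-rich cells lie closer to the line (SD of the log2 ratio 0.88, against 1.90 for all 54).

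Except for the near copies Tuba1a and Tuba1c over the 54 cells, single pairs of isotypes were related more loosely than the sums. Of 45 pairs, 43 had a positive Spearman correlation of CPM over the 54 cells, with a median of 0.227 and a range from -0.05 to 0.631. Over gene-rich cells all 45 were positive, with a median of 0.468 and a highest value of 0.718. The highest pair over 54 cells was Tuba1a with Tuba1c (0.631, near copies), followed by Tuba1b with Tubb4a (0.562) and Tubb2a with Tubb5 (0.539).

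Tuba1c and Tubb2b, the low near copies of the highest alpha and beta isotypes, followed different patterns. In the 50 cells with at least 100 counts of Tuba1a, Tuba1c had a median of 0.292 counts per 100 of Tuba1a (quartiles 0.169 and 0.460). It was above 2 per 100 in 2 cells, with 8.15 in knockout D1 cell 4 (136 counts against 1668) and 6.58 in wild-type D2 cell 12. In 2 of the 50 cells it had no read.

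For Tubb2b the ratio spread more widely. In the 47 cells with at least 100 counts of Tubb2a, its median was 0.0155 counts per 100 of Tubb2a, 22 cells had none, and 7 had more than 2. The highest ratios were 45.6 in knockout D2 cell 4 (223 counts against 489), 31.4 in wild-type D2 cell 18 and 23.8 in wild-type D1 cell 2. Its CPM in these 3 cells was 75.5, 70.7 and 107. Tubb2b was thus at or near 0 in most cells and within reach of Tubb2a in a few, in 3 of the 4 groups.

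**Figure D4:**
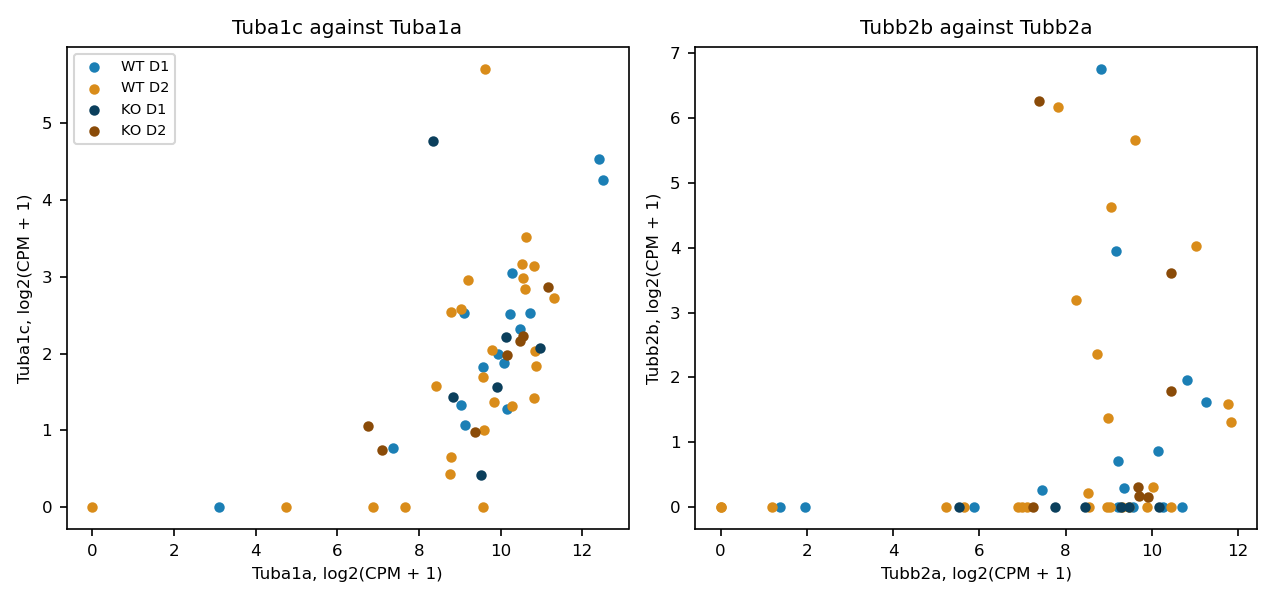
Level of Tuba1c against Tuba1a (left) and of Tubb2b against Tubb2a (right), each as log2(CPM + 1), with 1 point per cell coloured by group (WT, wild type; KO, knockout). Tuba1c is low against Tuba1a, with 2 cells above the rest, while Tubb2b is at 0 in many cells. It is not at 0 in the cells highest in Tubb2a, wild-type D2 cells 9 and 10 (1.47 and 2.00 CPM of Tubb2b). Over the 54 cells Tubb2a and Tubb2b had a Spearman correlation of 0.364.

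In the 4 comparisons below, a difference compares the group means of log2(CPM + 1), each cell counting equally, and an isotype is called different where it reaches 1 log2 unit. The background is every gene that averaged 1 CPM or more and was detected in 10% or more of the cells compared. All 10 isotypes passed that filter in each comparison. Comparisons share groups, so they are not independent of each other. In each comparison and for each of the 10 isotypes the ranges of the 2 groups overlapped.

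In wild-type mice, D1 cells had more Tubb4a and Tuba1b and less Tubb3 than D2 cells on this scale. The 10 isotypes had a median difference of 0.16, against -0.14 over all 11059 genes. 2 of 10 were higher in D1 cells, where 9.21% of all genes were, and 1 was lower, where 13.2% were. In gene-rich cells 2 were higher and 0 lower, where 11.3% and 34.6% of all genes were. Tubb4a ran from 0 to 2037 CPM in D1 cells, with a median of 331 (mean 546 ± 589, n = 15), and from 0 to 399 in D2 cells, with a median of 111 (152 ± 153, n = 26). The upper part of the D1 range lay above every D2 cell, while the lower parts overlapped. The difference was 1.88, the log2 ratio of mean CPM 1.84, and the value in gene-rich cells 1.11; without any 1 cell it stayed between 1.63 and 2.42, and without the cells of 31 days it was 1.10. At the 4 ages that both groups share, Tubb4a was higher in D1 cells at 29, 30 and 31 days and lower at 34 days (-3.28, 2 cells against 2).

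Tubb4a is also expressed by oligodendrocytes, whose 12 markers had a median summed level of 338 CPM in wild-type D1 (0 to 13691) and 585 in wild-type D2 cells (0.999 to 11147). Cldn11, Olig2, Sox10, Opalin and Ermn were at 0 in the wild-type D1 cells, and over these 15 cells Tubb4a had a Spearman correlation of 0.238 with the marker sum. Their part in the difference was not tested.

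Tubb3 split the D1 cells. 7 of the 15 wild-type D1 cells had at most 6.97 CPM and the other 8 had 240 to 1661 CPM, while the D2 cells ran from 0 to 1303 with a median of 280. The difference was -1.58, and it was -0.72 in gene-rich cells and -2.57 without the cells of 31 days. The mean CPM was nearly equal, 350 ± 499 in D1 and 337 ± 328 in D2 cells, so that the log2 ratio of means was 0.053 and had the opposite sign. Over the 15 D1 cells, Tubb3 had a Spearman correlation of 0.599 with the pyramidal marker sum, -0.56 with the astrocyte and -0.50 with the microglial marker sum, whose part in the result was not tested.

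Tuba1b had a median of 123 CPM in wild-type D1 (0 to 753) and 166 in wild-type D2 cells (0 to 767). It differed by 1.08 on the log scale although the medians had the opposite order; 6 of 26 D2 cells and 1 of 15 D1 cells had no read. Leaving out any of 12 single cells (5 D1 and 7 D2 cells) took the difference below 1, to 0.85 at the lowest. It was 0.40 without the cells of 31 days, 0.60 without those of 33 days and 0.94 without those of 29 days, and the log2 ratio of mean CPM was 0.39. The other 7 isotypes differed by -0.09 to 0.49, and the median of the 10 was -0.042 without the cells of 31 days.

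In knockout D1 cells, tubulin levels were not raised with the bulk of measured genes. The isotypes had a median difference from wild-type D1 cells of -0.41, against 0.98 over all 10792 genes, and 1 of 10 lay above that median. In gene-rich cells the isotype median was -1.21, against 0.14 over all genes, and there 7 of 10 isotypes were lower by at least 1 log2 unit, where 22.8% of all genes were, and 0 were higher, where 29.4% were. Over all cells, 1 of 10 isotypes was higher in knockout cells, where 49.6% of all genes were, and 2 were lower, where 8.02% were. Without knockout D1 cell 1 the median was 0.08, and without knockout D1 cell 6 it was -1.04. Among wild-type cells of 31 and 32 days (3 cells) the median was -1.63.

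The lower isotypes were Tubb5 and Tubb2b. Tubb5 was at 0, 467, 46.7, 0, 288 and 696 CPM in knockout D1 cells 1 to 6 (mean 250 ± 288, n = 6) and at 0 to 3357 in wild-type D1 cells, with a median of 332 (566 ± 891, n = 15). 2 of the 6 knockout and 3 of the 15 wild-type cells had no read. The difference was -1.28, and it was -2.92 in gene-rich cells and -0.16 as a log2 ratio of summed counts. It was -0.21 without knockout D1 cell 1 or cell 4, -0.92 and -0.98 without wild-type D1 cells 3 and 11, and -1.98 and -2.10 without knockout D1 cells 2 and 6.

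Tubb2b had no read in the 6 knockout D1 cells, a share of 0% with an exact Clopper-Pearson upper bound of 45.9% at 95%. Reads of it were present in 8 of 15 D1 and 11 of 26 D2 cells of wild-type mice and in 6 of 7 knockout D2 cells. On summed counts, the wild-type D1 level of 15.2 CPM (exact Poisson interval 14.2 to 16.3, counting error only) exceeded by at least 164-fold the level that 3 counts would give over the knockout D1 cells. Wild-type D1 cell 2 alone gave 754 of the 849 counts, and without it the summed level was 1.95 CPM, at least 21-fold above that of the 3 counts, and the difference of -1.09 became -0.69; without wild-type D1 cell 12 it was -0.89.

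Tuba4a was the 1 isotype called higher, by 1.70. It stood at 232 to 456 CPM in the knockout D1 cells, with a median of 407 (371 ± 96.1, n = 6), and at 0 to 2123 in wild-type D1 cells, with a median of 247 (393 ± 538, n = 15). The knockout cells lay in a narrow band inside the wild-type range. Mean CPM was nearly equal (log2 ratio -0.084), and in gene-rich cells the difference was 0.27. Of the isotypes below the call, Tubb4a (-0.93), Tubb3 (-0.68), Tuba1b (-0.55) and Tubb4b (-0.27) were lower, and Tuba1a (0.01), Tubb2a (0.10) and Tuba1c (-0.05) lay near 0. Astrocyte markers summed to a median of 524 CPM in knockout D1 and 960 in wild-type D1 cells and microglial markers to 439 and 898, and their part in these results was not tested.

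In knockout D2 cells, 4 of 10 isotypes were higher than in wild-type D2 cells and none was lower, where 36.4% of all 11222 genes were higher and 6.91% lower. The median difference was 0.77, against 0.56 over all genes. In gene-rich cells it was 0.02, against -0.39, and there 2 of 10 isotypes were higher, where 14.6% of all genes were, and 1 was lower, where 31.9% were. Over all cells, the share of isotypes called higher was thus close to the background share.

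Tuba1b, the alpha isotype nearest to Tuba1a in sequence, differed most, by 2.36. Knockout D2 cells 1 to 7 had 373, 452, 271, 68.7, 414, 481 and 142 CPM (mean 314 ± 159, n = 7), and wild-type D2 cells 0 to 767 with a median of 166 (195 ± 206, n = 26). No knockout cell was without a read, while 6 of 26 wild-type cells were. The difference was 1.61 in gene-rich cells and 0.69 as a log2 ratio of mean CPM.

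Tubb4b was 1.55 higher, Tubb2a 1.40 and Tubb5 1.06. Mean CPM was nearly equal, with log2 ratios of 0.13, 0.17 and -0.11 in the same order. Tubb4b had a median of 281 CPM in knockout D2 (0 to 877) and 166 in wild-type D2 cells (0 to 2736). Without knockout D2 cell 5, the 1 knockout cell with no read, its difference was 2.79; against the 5 wild-type cells of 31 and 32 days it was -1.20. Tubb2a had a median of 838 CPM in knockout D2 (150 to 1403) and 461 in wild-type D2 cells (0 to 3682), with a difference of 0.53 in gene-rich cells. Tubb5 had a median of 413 (52.2 to 713) against 228 (0 to 2553), a difference of 0.01 in gene-rich cells, and of less than 1 without any of 10 single cells, down to 0.76 without knockout D2 cell 2. The order of medians was the same for these 3 genes, and in each the highest cell was a wild-type one.

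The other isotypes of knockout D2 cells were not called. Tubb4a differed by 0.97, and by -1.09 in gene-rich cells, Tuba4a by 0.57, Tubb2b by 0.57 and Tuba1a by 0.23, while Tuba1c (-0.11) and Tubb3 (-0.56) were lower. Oligodendrocyte markers summed to a median of 1062 CPM in knockout D2 and 585 in wild-type D2 cells and interneuron markers to 44.1 and 9.80, with no read of Mog, Cldn11, Sox10, Opalin or Ermn and of Vip or Dlx5 in the knockout cells. Their part in these results was not tested.

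Set side by side, knockout D1 cells had less of 5 isotypes than knockout D2 cells and more of 1. The median difference was -1.26, against 0.29 over all 10990 genes, where 32.9% of genes were higher in D1 and 21% were higher in D2 cells. Tubb5 was lower by 2.37, with medians of 167 CPM (0 to 696) in D1 and 413 (52.2 to 713) in D2 cells. Tuba1b was lower by 1.83, with medians of 130 (0 to 489) and 373 (68.7 to 481). Tubb4b was lower by 1.80, with medians of 245 (0 to 581) and 281 (0 to 877). Every one of these D1 medians was below its D2 counterpart, and the ranges overlapped. The log2 ratios of mean CPM were smaller, at -0.43 for Tubb5, -0.86 for Tuba1b and -0.53 for Tubb4b.

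Tubb2b was lower by 1.76, and on summed counts the knockout D2 level of 8.28 CPM (exact Poisson interval 7.43 to 9.20) was likewise at least 89.1-fold above the level of 3 counts in knockout D1 cells. Knockout D2 cell 4 gave 223 of the 349 counts, and without it the summed level was 3.21 CPM, at least 34.6-fold above that of the 3 counts. Tubb3 was lower by 1.71, at 9.19, 35.3, 265, 15.6, 0 and 180 CPM in knockout D1 cells 1 to 6 and at 218, 582, 53.4, 498, 4.03, 112 and 14.5 in knockout D2 cells 1 to 7. Tuba4a was higher by 1.14 in D1 cells, with medians of 407 (232 to 456) and 336 CPM (2.17 to 826); the log2 ratio of mean CPM was -0.082.

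Single cells carried much of this comparison. Without knockout D1 cell 1, which had no read of Tuba1b or Tubb5, the median of the isotypes was -0.41 and Tuba1b differed by -0.58. The median was -0.75 without knockout D1 cell 4, -0.68 without cell 5 and -0.93 without knockout D2 cell 2. Tubb5 differed by -1.30 without knockout D1 cell 1 or cell 4, the cells at 0. Tuba4a differed by 0.19 without knockout D2 cell 7 and by 0.74 without cell 4. Tubb3 differed by -0.77 without knockout D1 cell 5, and Tubb4b by -0.68 without knockout D1 cell 4 or cell 5 and by -3.04 without knockout D2 cell 5. Tubb2b differed by -1.01 without knockout D2 cell 4. Knockout D1 and D2 cells were of nearly the same age and gene number (median 6487 and 6706 genes with a read), and in gene-rich cells the isotype median was -1.22, against 0.02 over all genes. There 1 isotype was higher and 5 were lower, where 27.6% and 26.1% of all genes were.

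**Figure D5:**
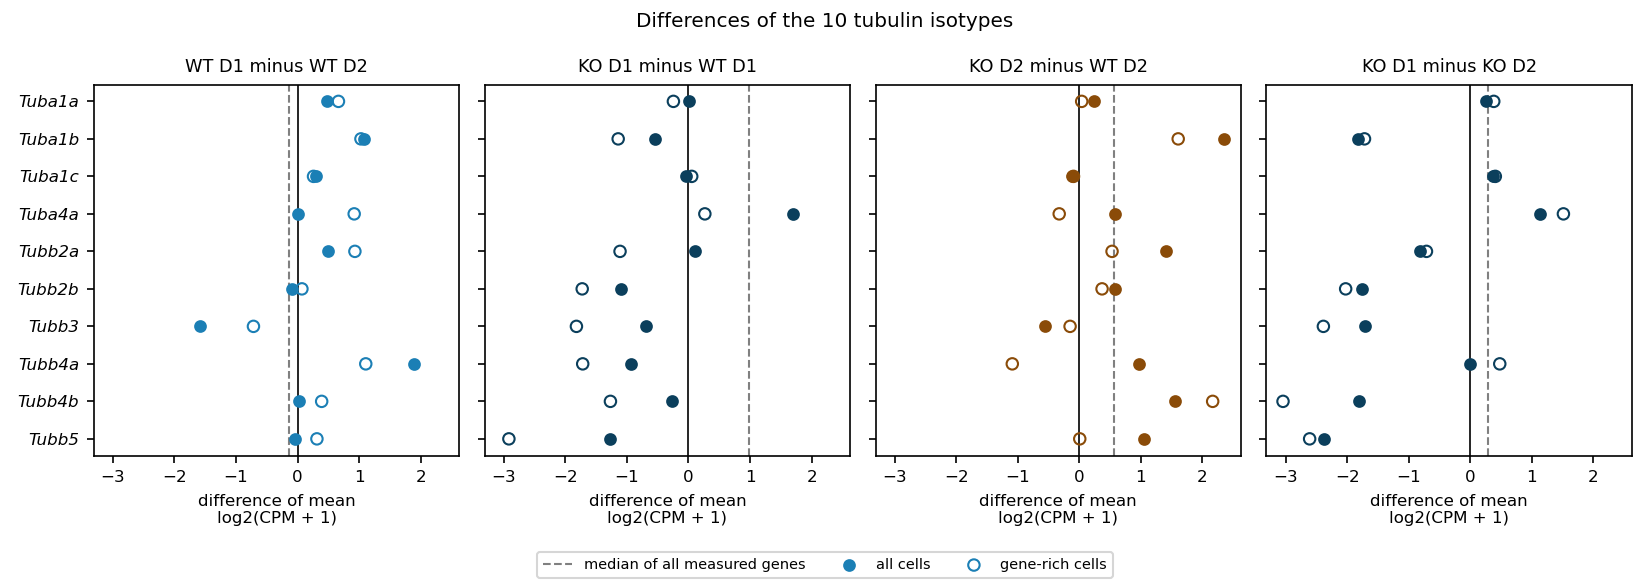
Difference of mean log2(CPM + 1) for each isotype in 4 comparisons, on the horizontal axis, over all cells (filled) and gene-rich cells (open), with the median of all measured genes dashed (WT, wild type; KO, knockout). The dashed line is the median over all cells and does not apply to the open points. In knockout D1 against wild-type D1 cells, 9 of 10 filled points lie left of the dashed line. In knockout D2 against wild-type D2 cells the filled points lie on both sides of it.

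Since the main isotypes are abundant, the same counts were made among genes of at least 100 CPM that were detected in 50% or more of the cells compared, a choice made after seeing the data. Of the isotypes, 8 passed, all but Tuba1c and Tubb2b. Between wild-type D1 and D2 cells 2 of these 8 were higher and 1 lower, where 13.3% and 18.4% of such genes were. Between knockout and wild-type D1 cells 1 was higher and 1 lower, where 64.8% and 6.02% were. Between knockout and wild-type D2 cells 4 were higher and 0 lower, where 55.2% and 3.81% were. Between knockout D1 and D2 cells 1 was higher and 4 lower, where 38.8% and 21.9% were.

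Genes that fold tubulin or control its mRNA were followed as a list of 22, which holds the CCT chaperonin and prefoldin subunits and the tubulin cofactors. In wild-type D1 against D2 cells, 7 of 22 were higher by at least 1 log2 unit, where 9.21% of all genes were, and 0 were lower, where 13.2% were, with a median of 0.58 (0.64 in gene-rich cells). The largest differences were those of Cct5, a chaperonin subunit (2.00), and Pfdn2, a prefoldin subunit (1.97). In knockout against wild-type D2 cells 15 of 22 were higher, where 36.4% of all genes were, and 0 lower, where 6.91% were, led by Pfdn6 (3.68) and Pfdn4 (3.50). The median was 1.65 over all cells and 0.53 in gene-rich cells. In the latter 7 of 22 were higher and 3 lower, where 14.6% and 31.9% of all genes were. In knockout against wild-type D1 cells 6 were higher, where 49.6% of all genes were, and 4 lower, where 8.02% were. The median was 0.09, below the 0.98 of all genes, and in gene-rich cells it was -1.34. In the latter 1 of 22 was higher and 15 were lower, where 29.4% and 22.8% of all genes were. Over all cells of this comparison, Tbcel, a tubulin cofactor-like protein, was 3.18 higher and Pfdn2 2.78 lower (difference -2.78). Between knockout D1 and D2 cells 5 were higher, where 32.9% of all genes were, and 12 lower, where 21% were, with Pfdn6 at -3.02 and Pfdn5 at -2.77. The median was -1.11. Among gene-rich cells it came to -1.65. In each of the 4 comparisons the median of this list lay on the same side of the all-gene median as that of the isotypes, though the comparisons share groups.

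For enzymes that modify tubulin, the median lay nearer to that of all genes than the median of the folding list in each comparison. Of 21 measured in knockout against wild-type D1 cells, 12 were higher and 2 lower, where 49.6% and 8.02% of all genes were, with a median of 1.06 (0.43 in gene-rich cells) beside the 0.98 of all genes. Tpgs2, a subunit of the polyglutamylase complex, differed by 4.17 and Ttll4, a glutamylase, by 2.67. In wild-type D1 against D2 cells 1 of 20 was higher and 2 were lower, where 9.21% and 13.2% of all genes were (median -0.21, and -0.60 in gene-rich cells), with Lrrc49, another subunit of that complex, at -1.69 and Ttll12 at -1.55. In knockout against wild-type D2 cells 9 of 19 were higher and 2 lower, where 36.4% and 6.91% of all genes were, with Tpgs1 at 2.97 and Lrrc49 at -2.84. The median of 0.95 turned to -0.24 in gene-rich cells. In these 4 of 19 were higher and 5 lower, where 14.6% and 31.9% of all genes were. Between knockout D1 and D2 cells 8 of 21 were higher and 5 lower, where 32.9% and 21% of all genes were (median 0.30, and -0.026 in gene-rich cells), with Sirt2, a tubulin deacetylase, at 3.19 and Nicn1, a subunit of the polyglutamylase complex, at -3.39.

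The median of microtubule-associated proteins likewise lay nearer to that of all genes than did the folding list's in each comparison. In knockout against wild-type D1 cells 24 of 38 measured were higher and 2 lower, where 49.6% and 8.02% of all genes were. The median of 1.37 became 0.07 in gene-rich cells. In these 13 of 38 were higher and 6 lower, where 29.4% and 22.8% of all genes were. Over all cells, Camsap2, a minus-end binding protein, differed by 4.55 and Mapre2, a plus-end binding protein, by 3.67. In knockout against wild-type D2 cells 19 of 38 were higher and 2 lower, where 36.4% and 6.91% of all genes were. The median of 1.03 turned to -0.29 in gene-rich cells. In these 6 of 38 were higher and 9 lower, where 14.6% and 31.9% of all genes were. Over all cells, Map6 differed by 3.27 and Dclk2 by 2.88, and in gene-rich cells by 0.84 and 0.50. In wild-type D1 against D2 cells 3 were higher and 7 lower, where 9.21% and 13.2% of all genes were (median -0.29, and -0.60 in gene-rich cells), with Ckap5 at -1.81 and Mapre1 at 1.72. Between knockout D1 and D2 cells 11 were higher and 9 lower, where 32.9% and 21% of all genes were (median 0.37, and -0.15 in gene-rich cells), with Camsap2 at 4.71 and Mapre2 at 3.52.

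Of 10 further tubulin genes, Tuba3a, Tuba3b, Tubal3 and Tubb1 had no read in the 54 cells. Tuba8 had reads in 2 wild-type D1 cells and 1 knockout D2 cell, with up to 147 CPM. Tubb6 was read in 2 wild-type D1, 3 wild-type D2 and 1 knockout D2 cells, with up to 95.3 CPM in wild-type D2 cell 12, the cell with the second highest Tuba1c ratio. Tubg1, the gamma tubulin of microtubule nucleation, had reads in 6 of 15 D1 and 15 of 26 D2 cells of wild-type mice and in 3 of 6 and 2 of 7 of knockout mice.

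The genes most like Tuba1a across the 54 cells, among 4556 genes read in at least 50% of them, were Tuba1c (Spearman correlation 0.631), Gapdh (0.605), Tmsb10 (0.589), Gap43 (0.582) and Stmn1 (0.564). Gapdh is a glycolytic enzyme, Tmsb10 binds actin monomers, Gap43 is a growth cone protein and Stmn1 binds tubulin dimers. Mitochondrial genes and predicted genes were passed over in this search. In gene-rich cells these values were 0.590, 0.775, 0.616, 0.605 and 0.718, and the genes ranked 55, 3, 29, 42 and 5 there. For Tubb2a the genes were Zwint (0.558), Tpi1 (0.557), Gng3 (0.546), Ppp3r1 (0.543) and Tubb5 (0.539). Their values in gene-rich cells were 0.671, 0.601, 0.574, 0.677 and 0.674, with ranks of 24, 67, 91, 20 and 22. Most of these genes were thus not the nearest ones in gene-rich cells. The median over all genes searched was -0.12 for Tuba1a and 0.02 for Tubb2a. All these values describe cells that share depth and capture.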

How the data were processed

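Total RNA from the cytosol of single patched neurons was made into libraries with Nextera XT, per the labels' protocols. Trimmomatic, STAR, featureCounts and the GRCm38 build are named in the submitters' processing notes; the sources used here give no versions, roles, strand setting or treatment of multiply matching reads. The authors deposited raw counts per gene, by 22800 symbols and by 22880 Ensembl identifiers, and a normalized signal table, which held the counts times 1 factor per cell (0.373 to 51.5) and served as an alternative. For the 10 isotypes both count tables agreed in all 54 cells. Columns that match no sample label, 2 per table, were not used. A single knockout D1 cell, labelled as failed in quality control, was kept out of all comparisons.

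CPM were computed from each cell's total. Differences are of mean log2(CPM + 1), which understates changes of low genes and weighs cells without a read heavily. Shares have exact Clopper-Pearson intervals and summed counts exact Poisson intervals (95%); without molecular identifiers these cover counting error only. The members and lists were chosen with earlier results of these data known. All 10 isotypes, the 2 genes of each list with the largest difference and the 5 genes most like the top alpha and beta isotype were named by rule. The backgrounds of genes above 100 CPM and of gene-rich cells and the omission of single wild-type cells were added after seeing the data. Gene positions, lengths and coding sequences came from GENCODE vM21 on GRCm38; the coding ends of the alpha isotypes are not reported here. On simulated counts with 200 of 22800 genes changed by 2 log2 units, at least 99.5% had the right direction in each comparison. The changed genes were drawn from those with higher mean levels. Both groups otherwise had the same mean levels, and neither the loss of reads in single cells nor the unequal gene numbers were copied. The simulation thus checks the computation only and does not measure how reliable the observed differences are. Python 3.11.15, numpy 2.4.6, pandas 2.3.3, scipy 1.17.1, Biopython 1.88, matplotlib 3.10.9, R 4.3.3 and edgeR 4.0.16 (TMM scaling only) were used.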

Additional observations from a re-analysis of the deposited data

Results flagged for a closer look

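Of 19 pairs of an isotype and a knockout group that could be examined for 1 outlying cell by Dixon's criterion on log2(CPM + 1), 3 stood out. The criterion's nominal rate of about 1 in 20 holds for independent pairs and normally spread values. Pairs that share a cell are not independent, and a cell without a read lies far out on this scale. The count of 3 is therefore not read as an excess. Tuba1b was at 0 CPM in knockout D1 cell 1, while the other 5 cells of that group had 119 to 489 CPM. In the same cell Tubb4a was at 1.36 CPM, against 104 to 318 in the others. Tubb4b was at 0 CPM in knockout D2 cell 5, against 204 to 877 in the other 6 cells.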

How the results depend on the processing

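Each median and each isotype's difference was recomputed with pseudocounts of 0.1 and 10, TMM-scaled CPM, totals without mitochondrial and ribosomal RNA genes, the authors' normalized values, the Ensembl table, gene-rich cells only, ratios of mean CPM and of summed counts, and without cells of single ages (or with 31 and 32 days only). Of the called differences, 8 values changed sign. Tubb3 in wild-type D1 against D2 cells was 0.053 as a ratio of mean CPM and 0.035 of summed counts. Tuba4a in knockout against wild-type D1 cells was -0.084 and -0.016, and between knockout D1 and D2 cells -0.082 and -0.39, by the same measures. In knockout against wild-type D2 cells, Tubb5 was -0.11 as a ratio of mean CPM and Tubb4b -1.20 at 31 and 32 days. By construction, ratios of means weigh cells without a read less than means of logs do. The median of the isotypes with 1 cell left out ran from -0.0014 to 0.45 (wild-type D1 against D2), -1.04 to 0.08 (knockout against wild-type D1), 0.50 to 1.41 (knockout against wild-type D2) and -1.46 to -0.41 (knockout D1 against D2). Of the 3, 3, 4 and 6 called isotypes, 2, 1, 3 and 2 stayed past the call without any 1 cell. Among genes of at least 100 CPM, the all-gene median was 1.74 in knockout against wild-type D1 and 1.16 in knockout against wild-type D2 cells. No paired analysis was possible because the labels give no replicate numbers and name no animal, and no test was made.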

Other observations

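A knockout D1 cell labelled as failed in quality control, which entered no comparison, had 950010 counts over 995 genes. Tuba1a was at 322 CPM in it (306 counts), Tuba1b and Tubb2a had 1 count each, and the other 7 isotypes had none, where 3 counts correspond to 3.16 CPM.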
